A study of Mus musculus with 4 samples.

Results

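miR-7 and miR-375 are small RNAs best known from hormone-secreting cells. Their reads were followed in the main olfactory epithelium by small RNA sequencing. This tissue is the sheet of odour-sensing neurons and supporting cells at the back of the nose. The rows were taken by name from the authors' deposited table: every miRNA called mmu-miR-7a, mmu-miR-7b or mmu-miR-375, with any arm or locus number. This gave 5 of 1167 rows: mmu-miR-7a-5p, mmu-miR-7b-5p, mmu-miR-7a-1-3p, mmu-miR-7a-2-3p and mmu-miR-375-3p, written without the species prefix from here on. The sixth name sought, mmu-miR-7b-3p, was not analysed here. The group was chosen by its AC3-/- and wild-type read counts, those of miR-7b-5p above all, so the genotype values of all 5 are given as a description, without a test.

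The tissue came from male C57BL/6 mice 3 months of age: 2 wild-type libraries and 2 libraries from AC3-/- mice. AC3 is adenylyl cyclase 3, the enzyme that turns odour receptor activation into cAMP in the cilia of olfactory sensory neurons. The allele, and whether each library is a different animal, are not stated in the labels, so the spread between them may be technical. The table gives 1 mean per genotype of read counts divided by library size factors, called normalised reads here. Most means could be split back into the whole reads of their 2 libraries, called a and b within each genotype. These letters carry no replicate number.

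miRNAs are made from hairpin precursors. Each hairpin is cut into a 5p arm and a 3p arm, and 1 arm is usually kept in the silencing complex while the other is degraded. Bases 2 to 8 of the kept arm, the seed, pair with target mRNAs. miR-7 is conserved across animals and is abundant in the pituitary, the pancreatic islets and neurosecretory neurons. In the mammalian brain it is bound by the circular RNA Cdr1as, which carries many miR-7 sites, and is directed to destruction by the long noncoding RNA Cyrano. miR-375 is abundant in pancreatic islets, where it restrains insulin release, and in the pituitary and some secretory epithelia.

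The mature miR-7 arms are shown with the seed in capitals because the comparison of miR-7b with miR-7a turns on how alike they are (RefSeq sequences, GRCm38.p6, 5′ to 3′).
miR-7a-5p: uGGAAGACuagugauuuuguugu
miR-7b-5p: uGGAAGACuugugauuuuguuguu
miR-7a-1-3p: cAACAAAUcacagucugccaua
miR-7a-2-3p: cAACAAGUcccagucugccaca
The seed GGAAGAC is the same in miR-7a-5p and miR-7b-5p, and no other mature miRNA among the 1679 mouse names of the RefSeq table carries it. Over the 23 bases that both share the arms differ at 1 base, A10U, counted from 1 at the 5′ end of miR-7a-5p, which lies outside the seed; miR-7b-5p is 24 bases long in this table and miR-7a-5p 23. The differing base is in capitals in the next lines.
miR-7a-5p, base 10: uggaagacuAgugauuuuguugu
miR-7b-5p, base 10: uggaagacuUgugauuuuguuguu
A read with a wrong base there, or a counting step that allows 1 mismatch, can place a read of one in the row of the other. How many mismatches the authors' counting allowed is not stated in the labels. The 3p arms of miR-7a differ more, at 3 of 22 bases (A7G, A10C and U21C from miR-7a-1-3p to miR-7a-2-3p). A7G lies in the seed, so the 2 arms have different seeds.

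3 hairpins carry these arms, shown with the arms that have a row in capitals.
Mir7-1: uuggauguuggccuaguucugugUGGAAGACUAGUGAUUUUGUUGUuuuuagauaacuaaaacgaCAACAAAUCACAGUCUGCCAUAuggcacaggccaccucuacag
Mir7-2: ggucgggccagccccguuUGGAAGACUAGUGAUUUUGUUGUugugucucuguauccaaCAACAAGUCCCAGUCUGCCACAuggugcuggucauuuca
Mir7b: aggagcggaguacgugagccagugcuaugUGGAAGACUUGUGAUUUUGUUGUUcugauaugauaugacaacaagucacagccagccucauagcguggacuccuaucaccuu
Mir7-1 lies at chr13:58392779-58392886 on the minus strand, in an intron of Hnrnpk, which encodes an RNA-binding protein and is read from the same strand. Mir7-2 lies at chr7:78888277-78888373 on the plus strand and Mir7b at chr17:56242988-56243098 on the plus strand, both outside any GENCODE M21 gene. The 5p arm of Mir7-1 and Mir7-2 is identical, so miR-7a-5p cannot be assigned to either, whereas the 3p arms can. Mir375, the hairpin of miR-375-3p, lies at chr1:74900658-74900721 on the minus strand, outside any gene, between Cfap65 and Cryba2.

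The libraries were deep, and 1 of them stood apart. Reads in the rows of the authors' deposited table came to between 19235425 and 20028574 for the 2 AC3-/- libraries together. For the 2 wild-type libraries they came to between 21166272 and 23101598. The range arises because the most abundant means could not be split. Some rows, such as miR-142a-3p and miR-142b, have equal values in every library, so these sums may count reads more than once. Reads carry no molecular identifiers, so intervals cover counting error only. Library values and a mean of 10 or more were had for 449 miRNAs. The wild-type pair differed 2-fold or more in 116 of them (25.8%) and the AC3-/- pair in 26 (5.79%). Markers of the labelled tissue were abundant: 16 rows for the arms of miR-183, miR-96, miR-182 and the miR-200 family, known from sensory epithelia, summed to 1832630 normalised reads in AC3-/- and 5463498 in wild type, led by miR-200b-3p. The 9 of them with library values summed to 49306 and 46900 in the AC3-/- libraries and to 43872 and 106297 in the wild-type pair. Among these 9, wild-type library b alone was high. They held a small part of the reads, and the rows behind most of the gap between genotype means have no library values. In bulk tissue, fewer cells of a type and less RNA per cell cannot be told apart.

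miR-7b-5p was the member that differed most between the genotype means, and nearly all of its excess lay in 1 library. AC3-/- library a held 1098.5 normalised reads of it (1261 reads) and library b 205.7 (226 reads). Wild-type library a held 102.0 (96 reads) and library b 106.4 (91 reads). Both AC3-/- values lay above both wild-type values, and AC3-/- library a stood far above the other 3. Against the wild-type mean of 104.2, library a was 10.5-fold higher and library b 1.97-fold higher, and the AC3-/- mean of 652.1 was 6.26-fold higher. Of the 449 miRNAs, 75 (16.7%) lay above wild type in both AC3-/- libraries without overlap and 76 (16.9%) below.

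The authors' deposited table gives miR-7b-5p a log2 fold change of 1.51 of AC3-/- over wild type. The log2 ratio of the deposited means is 2.65, and the labels do not state why the 2 values differ. A limma fit to log2(normalised reads + 1) over all 449 miRNAs put the log2 difference at 2.18 (SE, the standard error, 0.80). Without AC3-/- library a the difference was 0.97 (SE 0.57) and without library b 3.39 (SE 0.60). Without wild-type library a or b it was 2.15 and 2.21. No member lay past an adjusted p of 0.05 in the authors' deposited table, where 1 of 1167 rows did (0.0857%). At an unadjusted p under 0.05 it holds 41 rows (3.51%), of which miR-7b-5p is the 1 member, and nothing is read from that count because this contrast chose the members. The limma fit put 0 of 449 past an adjusted p of 0.05 (0%). At an unadjusted p under 0.05 the fit held 16 (3.56%), with miR-7b-5p again the 1 member, and nothing is read from that either.

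**Figure D1:**
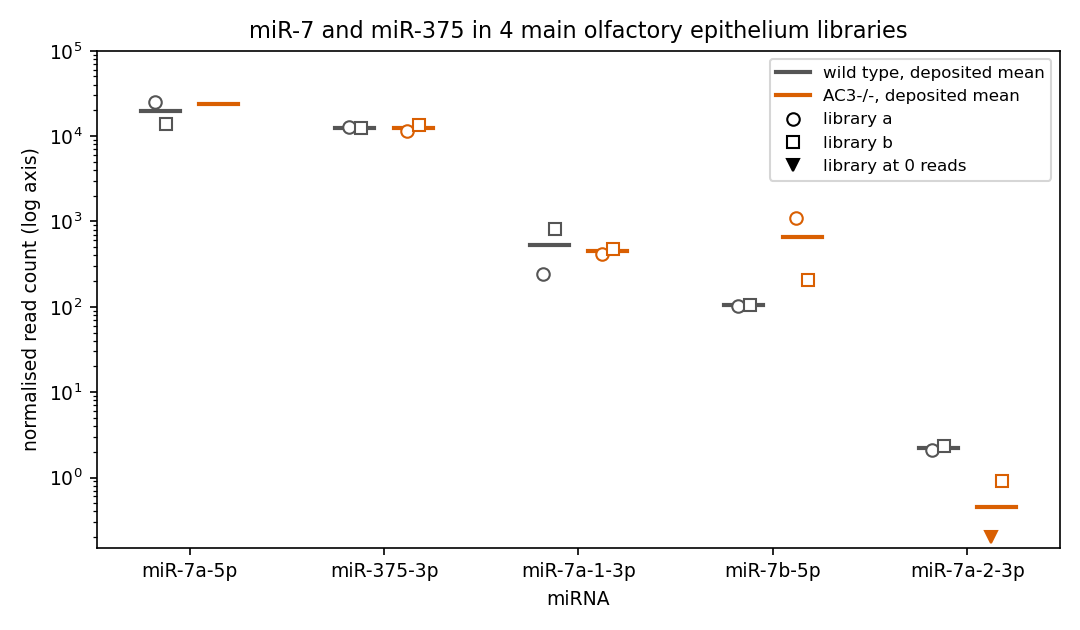
Normalised read count (log axis) of each miR-7 and miR-375 row in wild type and AC3-/-. Bars are the deposited means, open circles and squares the values worked back for libraries a and b, and the triangle marks a library with 0 reads. miR-7b-5p spans 102.0 to 1098.5 normalised reads, while miR-375-3p spans 11395 to 13435; the AC3-/- libraries of miR-7a-5p are not drawn because their split is not unique.

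miR-7b-5p also differed within a genotype. The AC3-/- mean that drew attention to it holds both of these libraries, so its rank by the gap between them is a description too. It lay 5.34-fold apart between them. On log2(normalised reads + 1) this was the third widest gap of 449 miRNAs, after miR-206-3p, a skeletal muscle miRNA, and the scarce miR-3062-5p, and the widest among 253 that averaged 100 or more. The median gap of the 449 was 1.26-fold. In wild type the same miRNA lay 1.04-fold apart, closer than most, where the median gap was 1.49-fold.

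In AC3-/- libraries a and b miR-206-3p stood at 17.4 and 0 normalised reads; the wild-type values were 4.25 and 28.1. The 5 rows of the striated muscle list (miR-1a, miR-133a and miR-206) summed to 6544 in AC3-/- library a and 4394 in AC3-/- library b. The wild-type pair had 6610 and 7020. By this sum AC3-/- library b was the low one and library a resembled wild type. Most of each sum was the single row miR-1a-3p, at 6276 and 4241 in AC3-/- and 6396 and 6723 in wild type. The 9 neuronal rows with library values (miR-124, miR-9, miR-128 and miR-138 arms) summed to 8695 in AC3-/- library a, 8605 in AC3-/- library b, 7621 in wild-type library a and 11181 in wild-type library b. This sum leaves out miR-9-5p, whose means were 107472 in AC3-/- and 103336 in wild type. It also hides rows that differ in direction. Of the 10 rows of the neuronal list, 4 lay above 0 and 6 below in the authors' deposited table. miR-124-3p, the only row of that table past the adjusted p, had 228.2 and 183.0 in AC3-/- and 21.3 and 37.4 in wild type. The part of the muscle and neuronal rows in the level of miR-7b-5p was not tested.

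**Figure D2:**
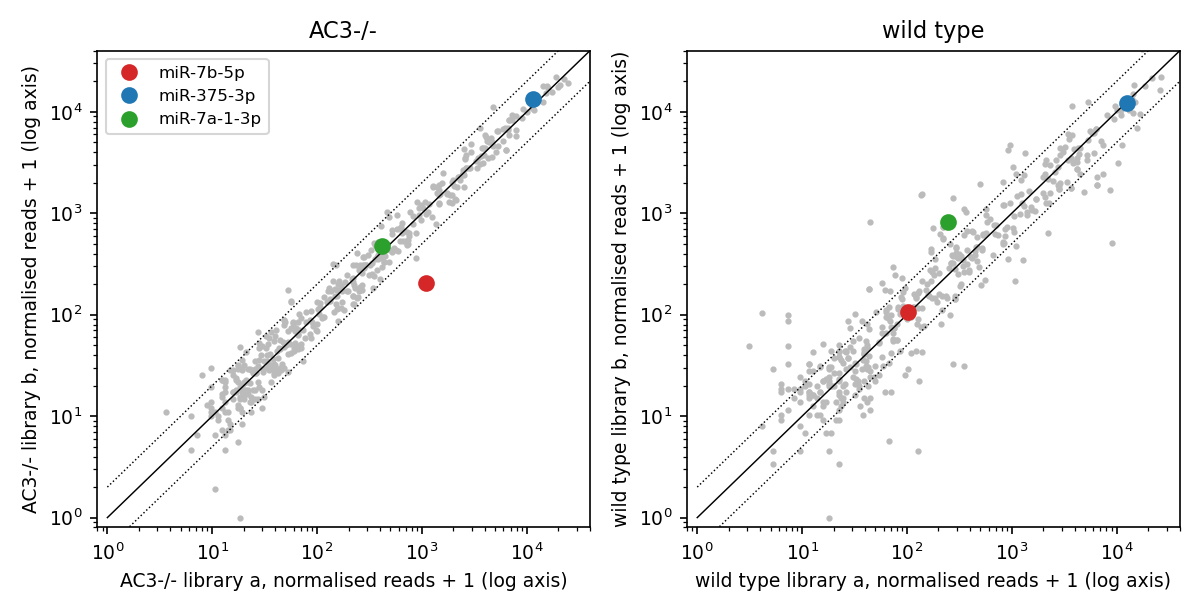
Normalised reads + 1 of 449 miRNAs in library b against library a of AC3-/- (left) and wild type (right), on log axes. The solid line marks equality and the dotted lines a 2-fold gap; miR-7b-5p (red) lies 5.34-fold apart in AC3-/- and on the line in wild type, while miR-7a-1-3p (green) lies off the line in wild type.

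miR-7a-5p, the near-identical partner, was the most abundant member and ranked 46 of 1167 rows by mean. The deposited means were 23833 normalised reads in AC3-/- and 19461 in wild type, 1.22-fold apart, with a log2 fold change of 0.24 in the authors' deposited table. The wild-type libraries held 24989 and 13934 normalised reads (23517 and 11915 reads), a 1.79-fold gap that exceeds the difference between the genotype means. The AC3-/- mean has 3 whole-read solutions. One puts libraries a and b at 26093 and 21574 normalised reads, 1.21-fold apart. The others put them 21.7-fold and 30.9-fold apart, whereas the widest gap between AC3-/- libraries among 112 split miRNAs with a mean of at least 1000 was 2.40-fold. Under each of the 3 the range of the AC3-/- libraries overlaps that of wild type.

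Set against miR-7a-5p, miR-7b-5p was a small fraction that varied between libraries. It came to 0.535% of miR-7a-5p in the wild-type means and 2.74% in the AC3-/- means, 5.11-fold more. In reads, miR-7b-5p made up 0.407% (95% Wilson interval 0.333 to 0.496) of the miR-7a-5p and miR-7b-5p reads of wild-type library a and 0.758% (0.618 to 0.930) of library b. The wild-type libraries had nearly equal miR-7b-5p and unequal miR-7a-5p, so the intervals of their shares do not overlap. With the near-equal solution of miR-7a-5p, the shares were 4.04% (3.83 to 4.26) in AC3-/- library a and 0.945% (0.830 to 1.08) in library b. The share in AC3-/- library b thus lay nearest that of wild-type library b, with overlapping intervals, and above that of wild-type library a, without overlap. These intervals cover counting error within 1 library, so they do not compare the genotypes. Under the other 2 solutions the shares were 34.3% and 0.449%, or 2.32% and 12.1%.

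Summed over the shared seed, the change was small because miR-7a-5p dominates. The 2 arms with the seed GGAAGAC came to 24485 normalised reads in AC3-/- and 19565 in wild type, 1.25-fold apart.

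Other pairs of miRNAs that differ at 1 base give the background for this ratio. 16 pairs had a length difference of at most 1 base and a more abundant partner with at least 1000 normalised reads in both genotypes. The ratio of the less to the more abundant partner moved by a median of 1.14-fold between the genotype means. It moved by 2-fold or more in 2 pairs, miR-7b-5p to miR-7a-5p and miR-211-5p to miR-204-5p. The latter ratio rested on 8.34 to 10.3 normalised reads of miR-211-5p and was 0.326% in the wild-type means and 0.671% in the AC3-/- means. By library it was 0.921% and 0.195% in wild type and 0.534% and 0.796% in AC3-/-, so without wild-type library b its direction turns. In wild type the miR-7 ratio was the second lowest of the 16. Its place at the head of the list follows from the contrast that drew attention to miR-7b-5p and is a description.

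**Figure D3:**
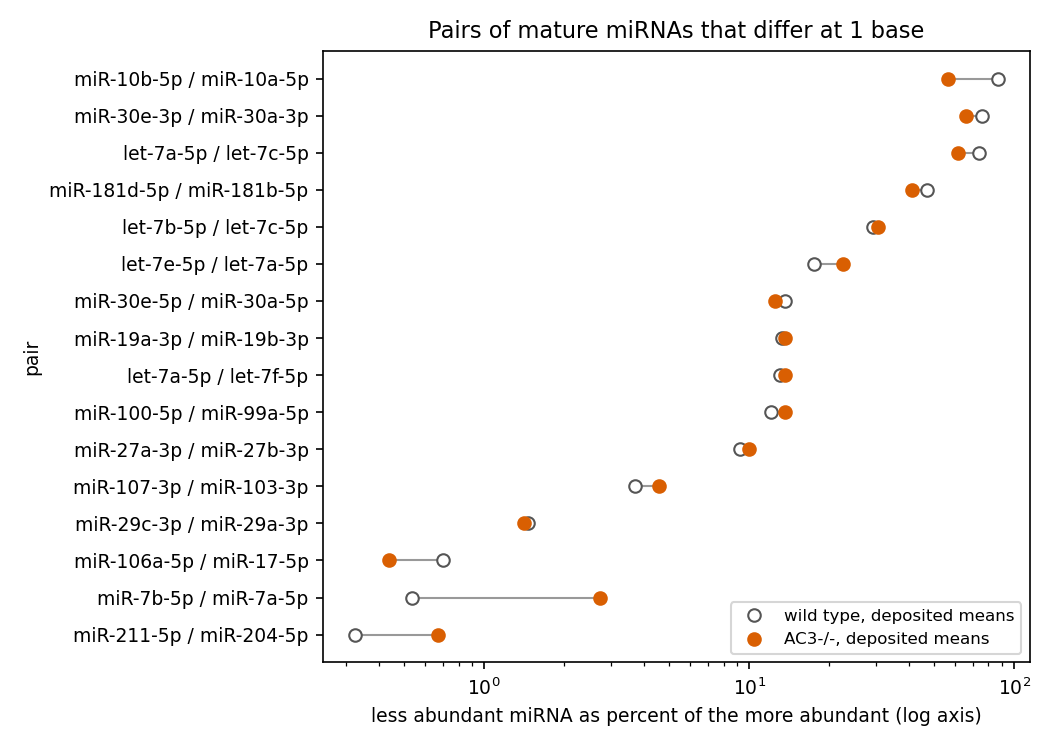
Less abundant miRNA as a percent of its more abundant partner (log axis) in 16 pairs of mature miRNAs that differ at 1 base. Open circles are ratios of the wild-type means and filled circles of the AC3-/- means; miR-7b-5p to miR-7a-5p moves from 0.535% to 2.74%, the longest line.

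The 3p arms of miR-7a are usually the discarded strands. miR-7a-1-3p, which comes from the Hnrnpk intron, had 418.2 and 475.1 normalised reads in AC3-/- and 243.3 and 816.2 in wild type (480, 522, 229 and 698 reads). Both AC3-/- values lay between the wild-type ones. The wild-type gap of 3.35-fold was wider than the 1.19-fold difference between the genotype means. The limma log2 difference was -0.00 (SE 0.62), 0.87 without wild-type library b and -0.87 without library a. miR-7a-2-3p, from the Mir7-2 hairpin, was scarce, with 0 and 1 read in AC3-/- and 2 and 2 reads in wild type. Its 2 genotypes cannot be compared at this depth.

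The arms of Mir7-1 moved in opposite directions between the wild-type libraries. miR-7a-5p was 103 times as abundant as miR-7a-1-3p in library a and 17.1 times in library b. The log2 ratio of the arms thus differed by 2.58 between libraries of 1 genotype. Among 55 precursors with both arms split in wild type and a mean of at least 100 for each arm, this was the widest change. The second, Mir574, changed by 1.19 and the median was 0.38. The arms of 20 of the 55 moved in opposite directions. The 5p arm is shared with Mir7-2, so the ratio is not that of 1 hairpin. With the near-equal solution, the AC3-/- libraries had ratios of 62.4 and 45.4, between the wild-type ones.

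**Figure D4:**
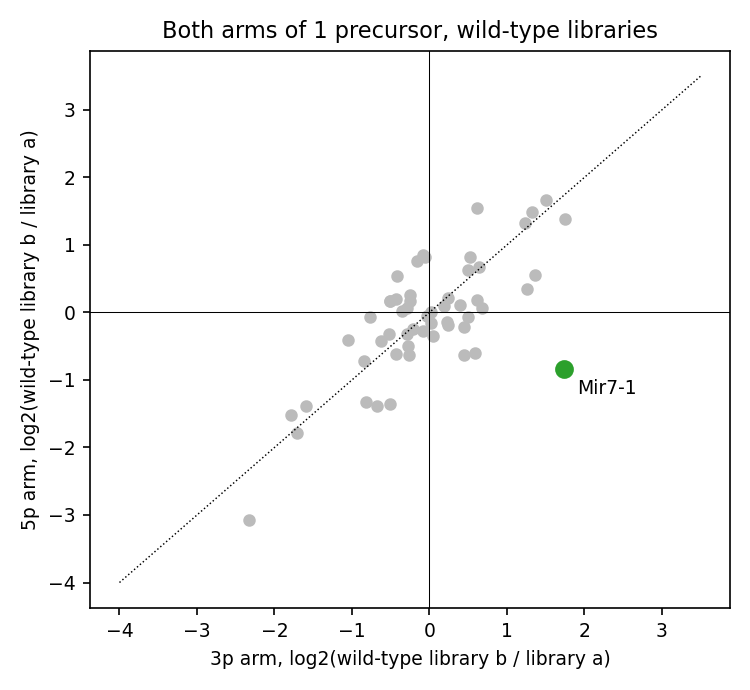
log2 of wild-type library b over library a for the 5p arm against the 3p arm of 55 miRNA precursors. The dotted line marks equal change of both arms; Mir7-1 (green) lies farthest from it, with the 3p arm at 1.74 and the 5p arm at -0.84.

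miR-375-3p was abundant and steady. It had 11395 and 13435 normalised reads in AC3-/- and 12672 and 12276 in wild type (13080, 14760, 11926 and 10498 reads). The wild-type values lay between the AC3-/- ones, and the highest library was 1.18-fold above the lowest. The genotype means were 12415 and 12474 normalised reads, rank 56 of 1167 by mean, and the authors' deposited table gives a log2 fold change of -0.01. The limma log2 difference was -0.01 (SE 0.20). The standard deviation of log2 normalised reads over the 4 libraries was 0.10. Among 112 split miRNAs with a mean of at least 1000, miR-375-3p ranked 7 from the steadiest, and their median was 0.30. Rows not split in every library, which are among the most abundant, were not ranked. Wild-type library b, which stood apart across the profile, did not stand apart for miR-375-3p.

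**Figure D5:**
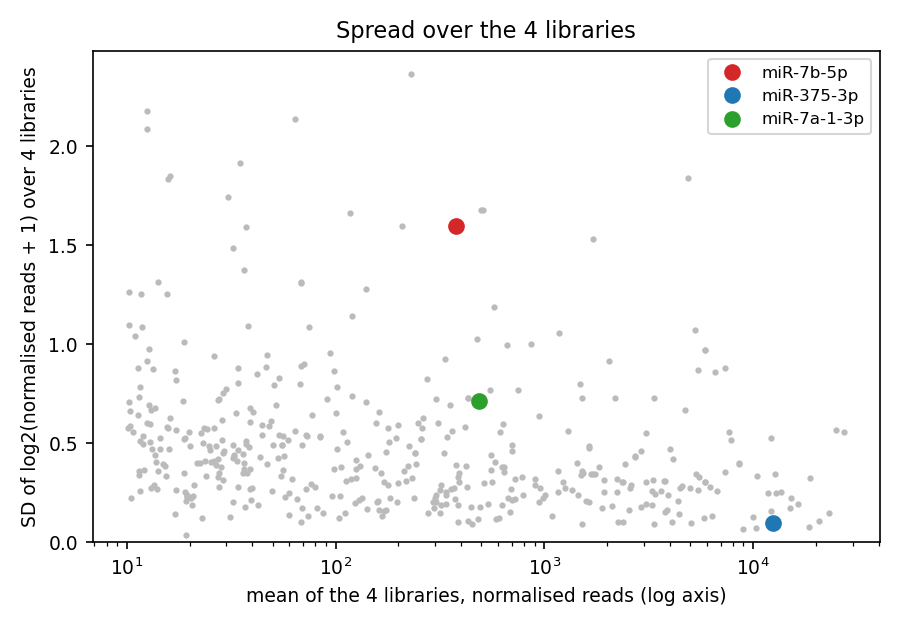
Standard deviation of log2(normalised reads + 1) over the 4 libraries against the mean of the 4 (log axis) for 449 miRNAs. miR-7b-5p (red) ranks 13 from the widest with 1.60, miR-7a-1-3p (green) ranks 84 with 0.72, and miR-375-3p (blue) ranks 441 with 0.10.

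In order of level, miR-7a-5p stood above miR-375-3p in both wild-type libraries, by 24989 to 12672 normalised reads in library a and by 13934 to 12276 in library b. In the AC3-/- means the order was the same. miR-7a-1-3p lay above miR-7b-5p in both wild-type libraries and in AC3-/- library b, and below it in AC3-/- library a. miR-7a-2-3p was lowest throughout. Ligation and PCR favour some sequences, so an order between different miRNAs is one of reads and not of molecules.

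Pattern likeness was measured as Pearson's r of log2(normalised reads + 1) over the same 4 libraries. It was taken among 250 other split miRNAs with a mean of at least 100 and is a description. For miR-7b-5p the nearest were miR-434-3p (0.97), miR-425-3p (0.92), miR-132-3p (0.92), miR-127-5p (0.83) and miR-124-3p (0.82). The first 4 spanned at most 1.93-fold from lowest to highest library, against 10.8-fold for miR-7b-5p. miR-124-3p, a neuronal miRNA, spanned 10.7-fold but was nearly level between the AC3-/- libraries, at 228.2 and 183.0 normalised reads. In wild type it was scarcer, at 21.3 and 37.4. The nearest to miR-7a-1-3p was miR-30a-3p (0.99), at 2852 and 4420 normalised reads in the wild-type libraries. The nearest to miR-375-3p was miR-28a-5p (0.96), at 329.3 to 437.8 normalised reads.

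No partner known from the same biology was called, and only 1 of all 1167 rows (0.0857%) was, so nothing is read from that. The endocrine list, which adds miR-153, miR-184 and miR-204 to the members, had 10 rows, 5 of them not members. Its tally therefore describes members and partners together. Of the 10 rows, 3 lay above 0 and 7 below in the authors' deposited table, with none past the adjusted p in either direction. Their median log2 fold change was -0.10, against -0.01 over all 1167 rows. miR-184-3p stood at 182.9 and 209.4 normalised reads in the AC3-/- libraries and at 120.1 and 146.2 in the wild-type ones. It lay above wild type without overlap, as 75 of all 449 miRNAs (16.7%) did. miR-204-5p, known from the islets, the eye and the choroid plexus, had 1469 and 1601 in AC3-/- and 923.4 and 4197 in wild type, where library b was the high one. miR-153-3p had 54.9 and 41.0 against 26.6 and 85.4 normalised reads.

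The arms of miR-671 complete the Cdr1as circuit, in which miR-671-5p directs the cutting of that circular RNA. miR-671-5p had 157.7 and 202.1 normalised reads in AC3-/- and 139.2 and 212.8 in wild type. miR-671-3p had 84.5 and 63.7 against 70.1 and 99.4. The AC3-/- values lay within the wild-type range for miR-671-5p and overlapped it for miR-671-3p. This list had 6 rows, of which only the 2 miR-671 arms were not members. Of the 6 rows, 3 lay above 0 and 3 below in the authors' deposited table. None was past the adjusted p, against 1 of all 1167 rows (0.0857%). Their median log2 fold change was -0.07, members included, against -0.01 over all 1167 rows.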

How the data were processed

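Small RNA of main olfactory epithelium was sequenced from 2 wild-type and 2 AC3-/- libraries, grouped by their titles. Bowtie, DESeq 1.8.3 and GRCm38 appear in the submitters' processing notes without their roles. The authors deposited 1 table whose signal columns hold 1 mean normalised read count per genotype (per the file headers). The authors also deposited a log2 fold change, a p-value and an adjusted p-value per miRNA.

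Every mean adds whole multiples of 2 fixed steps, 1 read's worth in each library. 1125 of 1167 AC3-/- means and 1134 wild-type means had 1 solution. The method was checked on simulated tables. The size factor was 1.15 in AC3-/- library a, 1.10 in AC3-/- library b, 0.941 in wild-type library a and 0.855 in wild-type library b. log2(normalised reads + 1) of the 449 miRNAs averaging 10 or more was fitted with limma 3.58.1 (R 4.3.3, trended variance prior, Benjamini-Hochberg adjustment). The labels name no separate animals, so a p-value covers the spread of these libraries alone.

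Members and lists were chosen with earlier results of these data known. Named miRNAs are the members, the 5 most alike of each split member, the miR-671 arms, the endocrine list and the leading miRNA of each marker list; miR-206-3p, miR-3062-5p, miR-211-5p, miR-574 and the pair rule that allows 1 base of length difference were chosen after values were seen. Most abundant in the other marker lists were miR-34c-5p (ciliated cells), miR-9-5p (neurons), miR-142a-3p (leukocytes), miR-1a-3p (striated muscle) and miR-451a (red blood cells). No row of those lists passed the adjusted p, apart from 1 of 10 neuronal rows. That row is the only 1 of all 1167 (0.0857%) to pass. Sequences and places are from RefSeq (GRCm38.p6) and GENCODE M21.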

Additional observations from a re-analysis of the deposited data

How the results depend on the processing

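No paired analysis was possible because the libraries worked back from the means carry no replicate number. In the limma fit no miRNA passed the adjusted p under any of 7 other settings (pseudocounts of 0.5 and 10, other filters, other scalings, no trend). miR-7b-5p stayed between 2.10 and 2.28 on the log2 scale. With 1 library left out, the number past the adjusted p ranged from 0 to 63: 63 without wild-type library a, 2 without library b and 0 without either AC3-/- library. The lone library of a genotype is then assumed to vary like the other pair. The call of miR-7b-5p was not the same in all of these fits, and nothing is read from that call because this contrast chose the members. Scaling by each genotype's summed means raised every log2 fold change by 0.50. In log2 ratios of the means scaled this way, miR-7b-5p came to 3.14 and miR-375-3p to 0.49, so miR-375-3p lay level with the shift. miR-7a-1-3p turned from -0.25 in the deposited means to 0.25, below the shift. The log2 change of the ratio of miR-7b-5p to miR-7a-5p, 2.35 in the means, ranged from 0.83 to 2.97 with 1 library left out, lowest without AC3-/- library a, with the near-equal solution. miR-7a-2-3p, with 5 reads in all, got no fold. The wild-type pair, with wider gaps than the AC3-/- pair, limits what 2 libraries against 2 can resolve.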
